A study of Mus musculus with 2 samples.

Results

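The expression of 8 acute phase genes of mouse liver was compared between mice with injured kidneys and mice with a sham operation. They are the orosomucoids Orm1, Orm2 and Orm3, the pentraxins Apcs and Crp, the leucine-rich glycoprotein gene Lrg1, the metalloreductase gene Steap4 and the ceruloplasmin gene Cp. Members were the probe sets whose platform annotation names 1 of these genes and no other, which gave 16 probe sets for all 8 genes, among 18193 genes named alone by a probe set. All mice were male wild-type C57BL/6 animals aged 8 weeks, and livers were taken 24 hours after surgery. Mice of the renal ischaemia-reperfusion group had both kidneys kept in warm ischaemia for 30 minutes, and mice of the sham group had the operation without it. Liver from 3 mice was combined into 1 pool per group, and each pool was read on 1 Affymetrix array, so there were 2 arrays in all. With 1 array per group there is no replicate error, and no test or p-value is given. Every difference describes these 2 pools.

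In the acute phase response, cytokines such as interleukin 6 and interleukin 1 reach the liver and hepatocytes change the plasma proteins they make. Interleukin 6 acts through its receptor and the signal transducer gp130 on the transcription factor STAT3. C/EBP factors, NF-kB and the glucocorticoid receptor also act on genes of this response. Orosomucoids, also called alpha-1-acid glycoproteins, are plasma lipocalins that carry small molecules. Pentraxins are ring-shaped pattern recognition proteins. In mice the pentraxin induced most strongly in inflammation is serum amyloid P component, the product of Apcs, whereas in humans it is C-reactive protein.

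In the renal ischaemia-reperfusion pool, Orm1, Orm2, Orm3, Apcs, Lrg1 and Steap4, that is 6 of the 8 genes, were higher than in the sham pool by 2-fold or more. Crp was the only 1 of the 8 that was at least 2-fold lower, and Cp stayed under 2-fold. Among all 13117 genes with at least 1 signal at or above the median of its array, 8.71% were higher and 9.59% lower by 2-fold or more. Of the 7 members not under the median of either array, 5 were higher and 1 lower by 2-fold or more, while these shares were 5.14% and 6.17% over the 10950 genes of that kind. Folds are on the scale of log2 of the signal plus 16, and each gene is read by its probe set with the highest mean on that scale. A gene with 1 signal under the median of its array has only a bound, taken with that signal set to the median, and by these bounds the same 6 genes were at least 2-fold higher, against 5.5% of all genes higher and 6.59% lower. The median log2 difference of the 8 genes was 2.56, or 2.06 with dim signals raised to the median, while the median over all genes was -0.01. Apcs, Orm2, Steap4 and Lrg1 were at least 4-fold higher, against 0.922% of all genes counted by the bounds. Whether fewer cells of a type or less RNA per cell lies behind a lower signal cannot be told apart in whole liver.

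**Figure D1:**
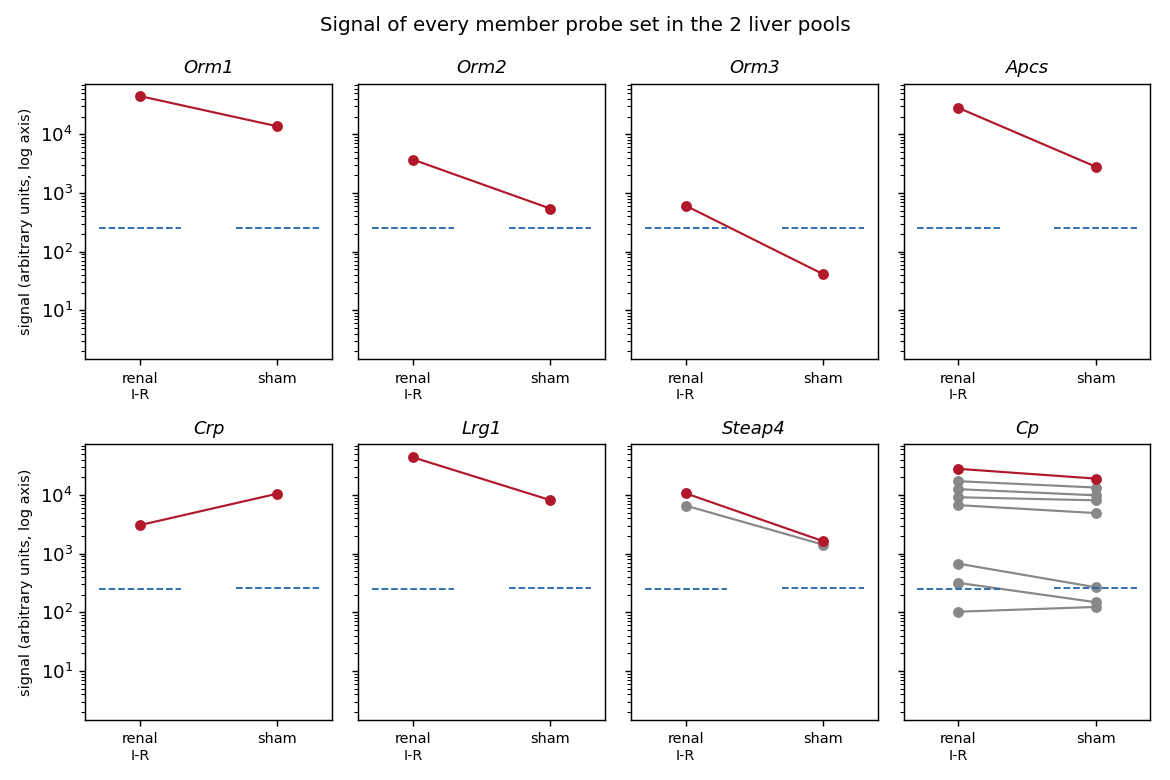
Signal of every member probe set on a log axis, with the renal ischaemia-reperfusion (I-R) pool left and the sham pool right in each panel. Red lines are the probe sets that represent a gene, grey lines its other probe sets, and dashed lines the array medians of 254.1 (renal ischaemia-reperfusion) and 257.0 (sham). Lines drop to the right for 7 genes by their representing probe set and climb to the right for Crp.

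**Figure D2:**
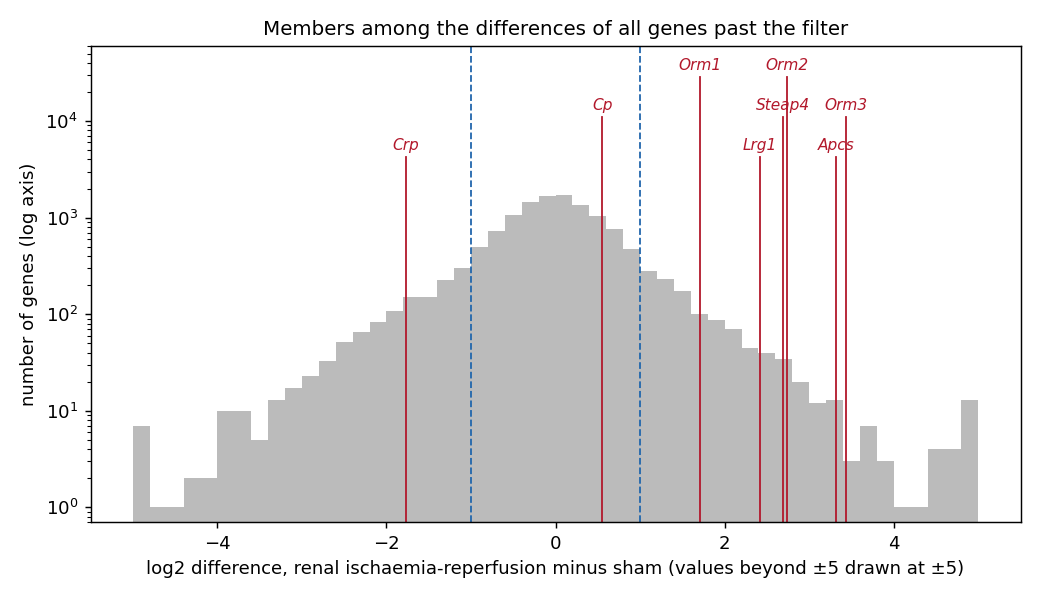
Histogram of the log2 differences (renal ischaemia-reperfusion minus sham) of 13117 genes, with the number of genes on a log axis, the members marked by red lines and the 2-fold threshold by dashed lines. Crp lies beyond the threshold on the lower side, Cp between the thresholds and the other 6 members beyond it on the higher side.

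The 3 orosomucoid genes were all higher after renal ischaemia-reperfusion. Orm1, a major orosomucoid gene of mouse liver, had a signal of 44739.6 in the renal ischaemia-reperfusion pool and 13674.9 in the sham pool, a 3.27-fold difference. Orm2 had signals of 3707.6 after renal ischaemia-reperfusion and 542.4 after sham surgery, a 6.67-fold difference. Both genes were above the median of both arrays, so their folds rest on measured signals on each side. Orm3 had a signal of 607.0 in the renal ischaemia-reperfusion pool and 41.4 in the sham pool. Its sham signal lay under the array median of 257.0, so only a lower bound against this median can be given, which is at least 2.28-fold. The measured log2 differences were 1.71 for Orm1, 2.74 for Orm2 and 3.44 for Orm3, and they placed Orm1 404th, Orm2 94th and Orm3 35th from the top among 13117 genes. The place of Orm3 depends on a dim signal. Each orosomucoid gene had 1 probe set, so none of the 3 differences had a second reading on the array. Orm1, Orm3 and Orm2 are close relatives that lie side by side on chromosome 4, with no other protein-coding gene between them in the RefSeq annotation, and how much RNA of 1 gene the probes of another bind was not tested.

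The promoter windows of Orm2 and Orm3 are shown because both genes were higher together and their upstream sequences are alike. Windows of 250 bases before and 50 after the annotated start were taken from RefSeq for GRCm38.p6, which held 7 of the 8 genes, all but Orm1. The window of Orm2 is chr4:63362199-63362498 and that of Orm3 is chr4:63355908-63356207, both on the plus strand. Capitals mark matches to the C/EBP motif TTGCNNAA or the STAT motif TTCNNNGAA on either strand.
Orm2: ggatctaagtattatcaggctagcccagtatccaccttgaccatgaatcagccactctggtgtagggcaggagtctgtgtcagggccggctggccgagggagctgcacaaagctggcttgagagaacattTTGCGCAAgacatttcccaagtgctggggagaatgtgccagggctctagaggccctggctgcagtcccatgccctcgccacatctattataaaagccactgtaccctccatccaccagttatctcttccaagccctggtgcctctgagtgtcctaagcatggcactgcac
Orm3: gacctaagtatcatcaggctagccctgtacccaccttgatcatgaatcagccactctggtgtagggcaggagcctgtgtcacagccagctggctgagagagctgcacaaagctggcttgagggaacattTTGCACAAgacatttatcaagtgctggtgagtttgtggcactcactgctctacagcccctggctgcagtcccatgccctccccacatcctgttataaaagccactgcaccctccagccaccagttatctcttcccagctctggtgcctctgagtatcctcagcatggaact
Over 295 aligned bases the windows of Orm2 and Orm3 were 89.2% identical. Both held a C/EBP match at nearly the same place, from base 131 to 138 in Orm2 and from base 130 to 137 in Orm3, and neither held a STAT match. Of 32851 mouse promoter windows of this length, 10.8% held the C/EBP motif and 8.3% the STAT motif. A match describes the letters only and shows no binding.

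The 2 pentraxin genes went in opposite directions. Apcs encodes serum amyloid P component and had a signal of 28207.0 in the renal ischaemia-reperfusion pool, against 2806.7 in the sham pool. The difference was 10.0-fold, a log2 difference of 3.32, and placed Apcs 42nd from the top of all genes. Crp encodes C-reactive protein and had a signal of 3079.0 after renal ischaemia-reperfusion, against 10570.5 after sham surgery. Crp was therefore 3.42-fold lower, a log2 difference of -1.77, which placed it 455th from the bottom. All 4 signals lay far above the array medians, so neither pentraxin difference rests on a dim reading, although each gene had only 1 probe set. In the RefSeq annotation Crp and Apcs lie next to each other on chromosome 1 with no protein-coding gene between them.

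The promoter windows of Apcs and Crp are shown because these neighbours differed in direction. The window of Apcs is chr1:172895005-172895304 on the minus strand and that of Crp is chr1:172697806-172698105 on the plus strand, both of GRCm38.p6 and with the same capitals as above.
Apcs: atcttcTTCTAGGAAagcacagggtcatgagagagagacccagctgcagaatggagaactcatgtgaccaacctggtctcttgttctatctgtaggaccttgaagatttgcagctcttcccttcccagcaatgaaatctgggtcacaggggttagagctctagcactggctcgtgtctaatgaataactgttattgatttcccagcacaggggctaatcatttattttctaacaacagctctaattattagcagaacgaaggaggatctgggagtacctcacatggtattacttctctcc
Crp: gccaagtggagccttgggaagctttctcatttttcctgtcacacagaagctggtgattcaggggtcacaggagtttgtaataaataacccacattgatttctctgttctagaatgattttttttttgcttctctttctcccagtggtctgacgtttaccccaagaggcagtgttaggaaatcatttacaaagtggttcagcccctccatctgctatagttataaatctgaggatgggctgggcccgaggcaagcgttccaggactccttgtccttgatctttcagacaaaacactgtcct
Apcs held a STAT match from base 7 to 15 of its window and no C/EBP match. Crp held neither, which says only that these letters are not in this window. Both windows held the glucocorticoid receptor half-site TGTTCT, which 19% of all windows hold.

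Lrg1 and Steap4 were both higher. Lrg1 encodes leucine-rich alpha-2-glycoprotein, a secreted protein that modifies TGF-beta signalling in endothelial cells. It had a signal of 44002.5 in the renal ischaemia-reperfusion pool and 8208.8 in the sham pool. That is a 5.35-fold difference by its 1 probe set, and it placed Lrg1 150th from the top. Its RefSeq window held neither a STAT nor a C/EBP match. Steap4 encodes a membrane reductase of iron and copper that is induced by inflammatory cytokines. Its brighter probe set had signals of 10705.9 after renal ischaemia-reperfusion and 1640.9 after sham surgery, a 6.47-fold difference. Its second probe set had signals of 6614.3 after renal ischaemia-reperfusion and 1430.5 after sham surgery, a 4.58-fold difference. The 2 readings of Steap4, at 2.69 and 2.20 on the log2 scale, had the same direction. Over 5028 genes, log2 differences of probe sets of 1 gene had an SD of 0.72 around the mean of their gene. That SD includes dim probe sets, and whether the gap between the Steap4 readings is usual for bright probe sets was not tested. Both Steap4 probe sets carry the suffix for several transcripts of 1 gene.

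The Steap4 promoter is shown because it was the only member window with matches to both motifs. It is chr5:7960222-7960521 on the plus strand of GRCm38.p6.
Steap4: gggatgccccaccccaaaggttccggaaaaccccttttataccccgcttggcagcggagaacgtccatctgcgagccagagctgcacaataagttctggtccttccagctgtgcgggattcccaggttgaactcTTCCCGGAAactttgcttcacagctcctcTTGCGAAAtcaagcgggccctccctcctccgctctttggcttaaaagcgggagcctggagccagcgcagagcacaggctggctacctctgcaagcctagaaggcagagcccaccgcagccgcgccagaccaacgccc
The STAT match spans bases 135 to 143 and the C/EBP match bases 164 to 171. Over the 7 genes with a window, 2 held a STAT match (Apcs and Steap4) and 4 a C/EBP match (Orm2, Orm3, Steap4 and 1 of the 2 windows of Cp). Of all windows 8.3% held the STAT and 10.8% the C/EBP motif. These shares are per window, whereas Cp counts through either of its 2 windows. The windows of Orm2 and Orm3 are 89.2% identical, so their C/EBP matches are not separate cases. The half-site GTTAAT of HNF1, a hepatocyte factor, was matched in 1 of the 7 genes, the other window of Cp, and in 7.1% of all windows. The glucocorticoid receptor half-site was matched in 4 of the 7 genes, namely Orm2, Apcs, Crp and Cp, and in 19% of all windows.

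Cp encodes ceruloplasmin, the copper-carrying ferroxidase of plasma, and was read by 8 probe sets. Its brightest probe set had a signal of 27999.7 in the renal ischaemia-reperfusion pool and 19095.9 in the sham pool, a 1.47-fold difference. By this reading 19.8% of all genes had a difference as high or higher, which put Cp just above the upper quartile of 0.42 on the log2 scale. The log2 difference of 0.55 fell to 0.30 with the trend on signal removed and to 0.25 by quantile normalization. The next probe set had signals of 17223.3 after renal ischaemia-reperfusion and 13447.0 after sham surgery (1.28-fold), and it can bind related sequences. The third had 12606.5 after renal ischaemia-reperfusion and 9910.6 after sham surgery (1.27-fold). The fourth had 9171.0 after renal ischaemia-reperfusion and 8134.2 after sham surgery (1.13-fold), and the fifth 6731.1 against 4928.9 in the same order (1.36-fold). These 5 bright probe sets were all slightly higher, with log2 differences from 0.17 to 0.55 and an SD of 0.14 among them. The other 3 probe sets had sham signals under 1000. One, above the median of both arrays, had signals of 675.8 after renal ischaemia-reperfusion and 267.8 after sham surgery (2.44-fold higher). Another had 317.9 after renal ischaemia-reperfusion and 148.9 after sham surgery, at least 1.22-fold higher against the sham median. The last had 102.5 after renal ischaemia-reperfusion and 123.5 after sham surgery, under the median of both arrays, and gets no fold. Of the 16 member probe sets, 15 passed the filter. With dim signals set to the median, 8 of them were higher and 1 lower by 2-fold or more, against 6.01% higher and 6.58% lower of all 21003 probe sets of 1 gene past the filter.

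The direction of the member differences did not depend on the settings tried. The 18 bacterial hybridisation controls, which are normally added in equal amount to each sample, had higher signals without exception on the array of the renal ischaemia-reperfusion pool, by a median of 0.28 on the log2 scale. With them as the reference every difference is shifted downwards by that amount, and Orm1 stood at 1.42, Apcs at 3.04, Lrg1 at 2.14, Cp at 0.27 and Crp at -2.06. Orm1 stood at 1.35 by quantile normalization, its lowest value of all. The brightest signals on the arrays were 85965.7 for renal ischaemia-reperfusion and 55427.1 for sham, so the signals of Orm1 and Lrg1 lay in the upper part of the scale. The ratio of 3' to 5' signal, a sign of RNA quality, was 1.24 after renal ischaemia-reperfusion and 1.38 after sham surgery for beta-actin. Orm3 was the member whose size varied most, between 1.19 with dim signals raised to the array median and 4.03 with the trend on signal removed. The 6 higher genes were at least 2-fold higher, and Crp at least 2-fold lower, in each setting that gave them a value. Cp was under 2-fold in all of them.

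**Figure D3:**
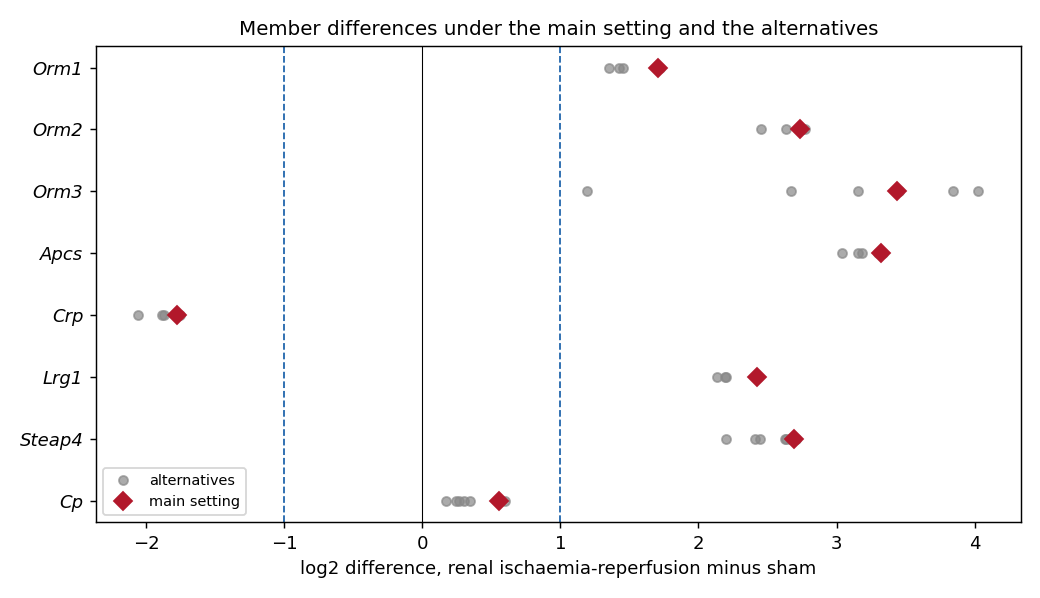
Log2 difference (renal ischaemia-reperfusion minus sham) of each member in the main setting (red diamonds) and in the alternatives (grey points), with the 2-fold threshold dashed. Orm3 spreads from 1.19 to 4.03, Cp stays between 0.17 and 0.60, and Crp is the only member on the lower side.

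Other positive acute phase genes of the liver were higher more often than lower. Of 24 such genes past the filter, 11 (45.8%) were higher and 2 (8.33%) lower by 2-fold or more. Over all genes 8.71% were higher and 9.59% lower, so the lower count was near the share of all genes. The median log2 difference of the 24 genes was 0.82, against -0.01 over all genes. This median fell to 0.49 with the trend on signal removed and to 0.39 by quantile normalization. With the hybridisation controls as the reference it was 0.53, against -0.30 over all genes, and 7 of the 24 genes were at least 2-fold higher. Lcn2, which encodes lipocalin 2 and belongs to the same protein family as the orosomucoids, was at least 188.5-fold higher, with a dim sham signal. Saa2, a serum amyloid A gene, stood at 7.12, read by a cross-hybridising type of probe set (suffix _x_at or _s_at). The lowest were Saa4 at -2.09, a serum amyloid A gene that is expressed constitutively, and Mbl1 at -1.06, a mannose-binding lectin. Of 11 negative acute phase genes, whose products livers usually make less of in inflammation, none was at least 2-fold lower or higher, although 1, Serpina6, was at least 2-fold lower with the hybridisation controls as the reference. Their log2 differences ran from 0.78 for Serpina7, the thyroxine-binding globulin, whose sham signal was dim, and 0.73 for albumin (Alb) to -0.67 for Pon1 and -0.80 for Serpina6, the corticosteroid-binding globulin. The median of 0.21 turned to -0.14 by quantile normalization, to -0.08 with the hybridisation controls as the reference and to -0.30 over the 7 genes left without the suffixes _x_at, _s_at and _a_at.

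**Figure D4:**
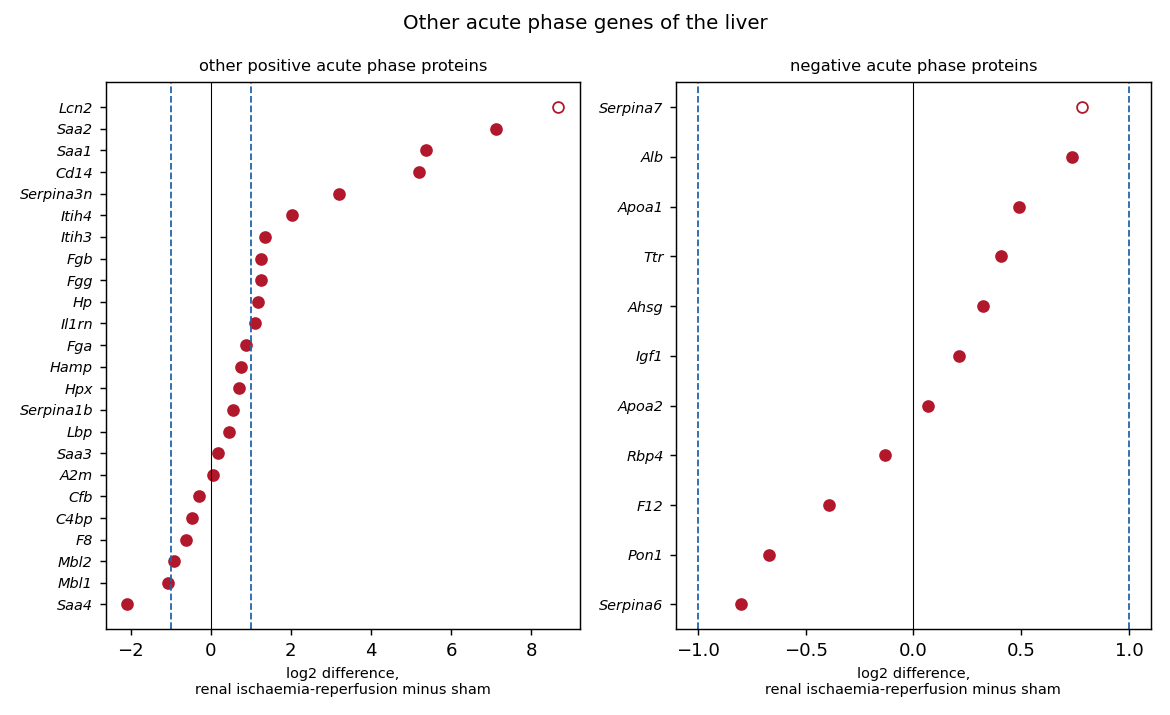
Log2 differences (renal ischaemia-reperfusion minus sham) of other positive acute phase genes (left) and of negative acute phase genes (right), with the 2-fold threshold dashed and open points for genes with 1 signal under the array median. On the left 11 of 24 genes lie beyond the higher threshold and 2 beyond the lower, and on the right none of 11 lies beyond either.

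Genes of the interleukin 6 pathway, which acts on the orosomucoid and pentraxin genes, were mixed. Of 18 past the filter, 5 were higher and 1 lower by 2-fold or more with dim signals set to the median, against 5.5% and 6.59% of all genes. Their median log2 difference was 0.12, or -0.16 with the hybridisation controls as the reference. Higher were Osmr, the oncostatin M receptor (at least 3.81-fold), the feedback inhibitors Socs2 (4.88-fold) and Socs3 (4.35-fold), Stat3 (4.19-fold) and the phosphatase gene Ptpn11 (2.10-fold). Stat3 had signals of 6855.6 after renal ischaemia-reperfusion and 1623.5 after sham surgery, and 5722.6 after renal ischaemia-reperfusion and 1749.5 after sham surgery by its second probe set. The third, dimmer probe set went the other way, with 704.7 after renal ischaemia-reperfusion and 973.8 after sham surgery. Stat5b was 2.02-fold lower. Stat5a (at least 1.93-fold lower) and Lif (at least 1.62-fold lower) had dim signals after renal ischaemia-reperfusion, and their bounds lie under 2-fold. With the hybridisation controls as the reference and dim signals as measured, 5 genes were at least 2-fold lower. The receptor genes themselves differed little, with log2 differences of 0.32 for Il6st, which encodes gp130, and -0.38 for Il6ra. Il6, the ligand, had signals of 165.4 after renal ischaemia-reperfusion and 127.6 after sham surgery, under the median of both arrays.

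Of 17 transcription factors that act on acute phase genes, 3 (17.6%) were higher and 3 lower by 2-fold or more, with a median of -0.21. Over all genes 8.71% were higher and 9.59% lower. Besides Stat3, the higher ones were Cebpd (3.82-fold), a C/EBP factor induced in inflammation, and Nfil3 (2.10-fold). Cebpd had signals of 1645.6 after renal ischaemia-reperfusion and 419.5 after sham surgery, while its other probe set had 355.9 after renal ischaemia-reperfusion and 386.4 after sham surgery. Lower were Nr1h4, which encodes the bile acid receptor FXR (3.01-fold), Cebpa, the C/EBP factor of resting hepatocytes (2.36-fold), and Foxa1 (2.08-fold). When each gene was read by its least different probe set, 1 of these factors was at least 2-fold higher. With the hybridisation controls as the reference 2 were at least 2-fold higher and 4 lower, and the median was -0.49.

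**Figure D5:**
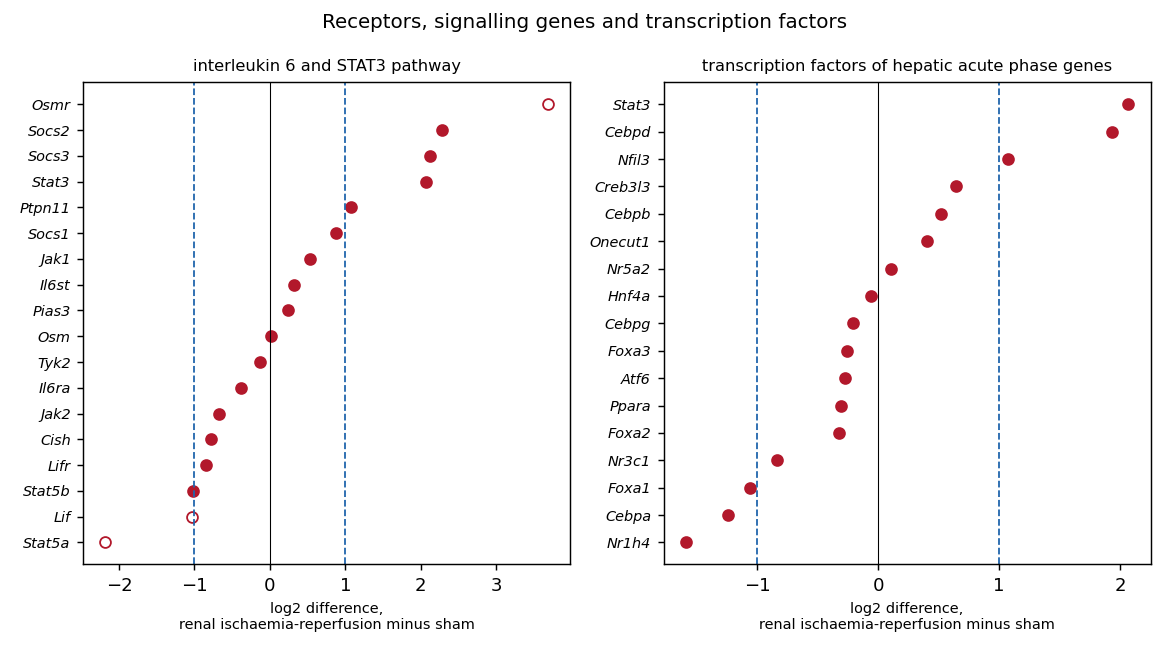
Log2 differences (renal ischaemia-reperfusion minus sham) of interleukin 6 and STAT3 pathway genes (left) and of transcription factors that act on acute phase genes (right), with the 2-fold threshold dashed and open points for genes with 1 signal under the array median. Osmr, Socs2, Socs3 and Stat3 lead the left panel, Stat3 and Cebpd the right, and Cebpa and Nr1h4 are lowest on the right.

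Relatives of the members, and genes for their receptors and ligands, were counted in the same way. Of 13 other pentraxin, STEAP, lipocalin and ferroxidase genes past the filter, only Lcn2 (7.69%) was at least 2-fold higher and none was at least 2-fold lower. Over all genes 8.71% were higher and 9.59% lower, so the higher count was near the share of all genes. The Steap4 relatives Steap1, Steap2 and Steap3 had log2 differences of -0.21, -0.25 and -0.17, Steap1 by a probe set with the suffix _s_at. A further Steap3 probe set, with the suffix _x_at, had 50.2 after renal ischaemia-reperfusion, under the array median, and 406.4 after sham surgery. The long pentraxin Ptx3 had signals of 89.5 after renal ischaemia-reperfusion and 17.9 after sham surgery, and the ferroxidase Heph, a relative of Cp, 115.1 and 28.9 in the same order, all under the array medians. Among 16 genes for pentraxin receptors, ligands and complement, 2 were higher and 2 lower by 2-fold or more, or 4 lower with the hybridisation controls as the reference. Fcgr3, an Fc receptor that binds pentraxins (at least 2.12-fold), and Fcer1g, the signalling chain of Fc receptors (2.92-fold), were the highest. C1qa (at least 3.61-fold lower) and C1s1 (2.61-fold lower, by a probe set with the suffix _s_at) were the lowest. Both belong to the first complement component, whose other genes on the list differed less. These were C1ra at -0.94, C1qb at -0.18 and C1qc at -0.07 on the log2 scale. Further probe sets of C1qb went either way, at 0.55 and -1.38. Of 16 TGF-beta pathway genes, through which LRG1 acts, 3 were higher and none lower by 2-fold or more. These were Id2 (4.35-fold), Id3 (3.28-fold) and Smad1 (3.03-fold), whereas Eng, a co-receptor that LRG1 binds, was at least 1.47-fold lower, with a dim signal after renal ischaemia-reperfusion. Its other probe set went the other way, with 396.4 after renal ischaemia-reperfusion and 165.2 after sham surgery, so Eng has no settled direction.

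Hepatocyte markers were bright on both arrays, with signals from 6888.8 to 85965.7 after renal ischaemia-reperfusion and from 8042.8 to 49358.8 after sham surgery over 11 genes. Of these, Fgb was at least 2-fold higher, though not with the hybridisation controls as the reference, and Cps1 at least 2-fold lower. Human neutrophils store orosomucoid and LRG1 too, and of 10 neutrophil markers past the filter 2 were higher and none lower by 2-fold or more with dim signals set to the median. S100a8 was at least 5.21-fold and S100a9 at least 2.95-fold higher, Cxcr2 at least 1.14-fold lower, and the defining granule genes Mpo and Elane stood at 0.07 and -0.44. S100a8 and S100a9 passed the filter only through the renal ischaemia-reperfusion array, and S100a8 was read by a probe set with the suffix _s_at. The summed signal of the 10 markers was 8520 after renal ischaemia-reperfusion and 6617 after sham surgery. S100a8 had 1407.4 after renal ischaemia-reperfusion and 45.6 after sham surgery, and S100a9 had 788.1 and 204.8 in the same order. The difference between the sums rests on these genes, while Ltf, Elane and Cxcr2 were lower. Markers of pancreatic acinar cells were higher by 2-fold or more in 6 of 7 with dim signals set to the median, against 5.5% of all genes. Cpa1, Ctrb1 and Cpb1 among them passed the filter only through the renal ischaemia-reperfusion array. The summed signal of the 7 was 10822 after renal ischaemia-reperfusion and 4279 after sham surgery. Cpa1 had 916.9 after renal ischaemia-reperfusion and 18.5 after sham surgery, at least 3.42-fold higher by its bound. Of 5 cholangiocyte markers 3 passed the filter, Epcam and Krt19 only through the renal ischaemia-reperfusion array, with sums of 2421 after renal ischaemia-reperfusion and 572 after sham surgery. By its bound Epcam, read by a probe set with the suffix _x_at, was at least 4.38-fold and Krt19 at least 1.93-fold higher. Sox9, above the median on both arrays, was 2.23-fold higher, though under 2-fold with the hybridisation controls as the reference. The other two markers, under both medians, went the other way, with 15.2 after renal ischaemia-reperfusion and 108.6 after sham surgery for Cftr, and 32.0 and 81.3 in the same order for Krt7. Fabp4, 1 of 3 adipocyte markers past the filter, was at least 20.9-fold higher by its brightest probe set. Another Fabp4 probe set, above the median on both arrays, had 758.6 after renal ischaemia-reperfusion and 791.7 after sham surgery, while Adipoq, which defines adipocytes, had signals of 25.0 after renal ischaemia-reperfusion and 38.0 after sham surgery. Of 10 macrophage markers 1 was at least 2-fold lower, Cd5l (2.97-fold), with sums of 9125 after renal ischaemia-reperfusion and 12741 after sham surgery. Of 9 sinusoidal endothelial markers Lyve1 was higher (8.04-fold) and Clec4g lower (2.08-fold), and of 8 stellate cell markers Dcn was 2.02-fold higher, though under 2-fold with the hybridisation controls as the reference, and Lrat at least 1.34-fold lower. None of 6 lymphocyte, 2 erythroid or 7 reference genes was higher or lower by 2-fold or more. The part of these cell types in the member differences was not tested.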

How the data were processed

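Per the labels' protocols, 6 ug of Trizol-extracted RNA was made into biotin-labelled cRNA for Affymetrix arrays. The deposited values are a linear intensity per probe set, and both arrays had a trimmed mean of 500.0 (2% trimmed per end), which shows a scaling by the authors. The sources used here give no summarising software, background step or filter. Of 45101 probe sets, 64 are controls. Gene names came from the platform annotation, with 34945 probe sets naming 1 gene, 932 several and 9160 none, and 34741 symbols were updated through the Entrez ID in RefSeq (GRCm38.p6). Values were log2 of intensity plus 16, computed in Python 3.11.15 with pandas 2.3.3 and statsmodels 0.14.6. A probe set entered when its brighter signal reached the median of its array, and genes were counted at 2-fold. For a gene with 1 signal under the median, the bound sets the brighter signal against that median. The number of arrays limits the precision. The steps were tested on simulated arrays.

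The members and lists were chosen with earlier results of these data known. The text names all members and, of each list, genes among the 2 highest and 2 lowest, besides regulators and cell markers at 2-fold. Genes under the filter, receptor genes, Steap relatives, Mpo and Elane were named after their values were seen. Not every gene the rule takes is printed. The alternatives were pseudocounts of 1 and 64, 4 scalings, 3 filters, dim signals raised to the median, other probe set choices and thresholds of 1.5-fold and 3-fold.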

Additional observations from a re-analysis of the deposited data

How the results depend on the processing

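No paired analysis was possible because each group is 1 pool. The number of members at least 2-fold higher was 6, or 5 where Orm3 (filter at the 75th percentile, or both arrays at their median) or Steap4 (suffixes _x_at, _s_at and _a_at left out) had no value, and 1 was at least 2-fold lower throughout. A member difference was held to depend on a setting when it shifted by more than 0.72, the SD of probe sets of 1 gene. Only that of Orm3 did, from 3.44 to 2.67 with a pseudocount of 64 and to 1.19 with dim signals raised, because its sham signal was dim. The limit is larger than the Cp difference of 0.55, so it cannot tell whether Cp depends on a setting. Cp stood at 0.25 by quantile normalization and at 0.17 by its least different probe set. Over all genes, 756 were higher and 2016 lower with hybridisation controls as the reference, so 27.3% of the genes at 2-fold were higher, against 47.6%. Counts were 682 and 797 with the 75th percentile filter, 563 and 676 with both arrays at their median, 2449 and 2536 at 1.5-fold, and 472 and 589 at 3-fold, higher first. With dim signals raised 733 were higher. Of the remaining counts and medians, mostly of gene lists, 1125 shifted little (counts within 1.5 times, list medians within 0.72 over the square root of the list size) and 149 shifted more, and no median beyond 2-fold changed sign.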

Other observations

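Over all genes 8.71% were higher and 9.59% lower by 2-fold or more, and the counts of the lists below stand beside these shares. Genes of iron and copper metabolism, in which Cp and Steap4 take part, had 3 of 18 higher and 1 lower by 2-fold or more (4 lower with the hybridisation controls as the reference), around a median of -0.04 on the log2 scale. Mt2 (5.01) and Mt1 (4.48), the metallothioneins that bind zinc and copper, were the highest, and Slc39a14 (2.10), a zinc and iron importer, was also at least 2-fold higher. Slc40a1 (-1.86), the iron exporter whose work ceruloplasmin assists, and Ccs (-0.95), the copper chaperone of superoxide dismutase, were the lowest. Of 16 genes of interleukin 1 and NF-kB signalling, 4 were higher and 1 lower by 2-fold or more, and 1 was higher among those bright on both arrays. The interleukin 1 receptor Il1r1 was at least 18.3-fold and the decoy receptor Il1r2 at least 2.04-fold higher, while Il1rap, the accessory chain of the receptor, was 3.16-fold lower by its brightest probe set, and its other probe sets, from 1.25-fold to 1.69-fold lower, had that sign but stayed under 2-fold. By the mean of probe sets no gene of this list was at least 2-fold lower. Of 14 glucocorticoid responsive genes Mt2 was the 1 that was higher by 2-fold or more, and 3 were lower, namely Pck1 (-1.18), Tsc22d3 (-2.25) and Lpin1 (-2.67).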
